A study of Mus musculus with 3 samples.

Results

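Naive-like CD8 T cells of the mouse lung were described in 3 single-cell RNA libraries. The cells were chosen by transcripts alone. A member had at least 1000 unique molecular identifiers (UMIs, each tagging 1 captured transcript), at least 500 genes and at most 10% mitochondrial UMIs. It also had at least 2 UMIs of Cd3d, Cd3e and Cd3g together, at least 2 of Cd8a and Cd8b1 together, 0 of Cd4, at most 1 of the effector genes Ccl5 and Nkg7 together, and at most 1 of Cd79a, Epcam, Cdh5 and Marco together. The rule kept 557 of the 12458 cells that passed the limits on UMIs, genes and mitochondrial share. WT healthy held 105 members of 2947 cells, WT tumour 193 of 4374 and PPARg-/- tumour 259 of 5137.

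The WT healthy mice carried Ccsp-rtTA;TetO-EGFRL858R, a lung cancer model in which the CCSP promoter drives a doxycycline-dependent activator that switches on mutant EGFR in airway epithelium. The WT tumour mice carried in addition Pparγfl/fl, and the PPARg-/- tumour mice Pparγfl/fl;Csf1rCre, with Cre driven by Csf1r, a gene of monocytes and macrophages. All mice were 16 to 20 weeks old and all were given chow with 625 ppm doxycycline. The labels do not say how the healthy mice stayed free of tumours, and tumour and floxed alleles cannot be told apart between WT healthy and WT tumour. Each library pooled the lung cells of 3 mice, so each group is 1 sample, and differences between groups have no replicate check. The libraries were made from equal proportions of 4 sorted populations, which were alveolar macrophages, other macrophages, T cells (CD45+CD3+) and epithelium. The share of T cells in a library was therefore set by the mixing. The labels describe no step that marks blood cells, so cells in vessels and cells in tissue cannot be told apart.

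A naive CD8 T cell has left the thymus and has not yet met its antigen. It recirculates through blood and lymph nodes with the help of the chemokine receptor CCR7, is kept alive by interleukin 7 and self-peptide on MHC class I, and is held quiet by transcription factors such as KLF2, LEF1 and TCF1 (Tcf7). After antigen it takes on effector genes such as granzymes, Ccl5 and Nkg7, and part of its offspring persist as memory cells or stay in tissues such as the lung.

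The libraries held 30454790, 46148658 and 44548318 UMIs, given here and below in the order WT healthy, WT tumour, PPARg-/- tumour. The members had 483104, 730629 and 1063925 of them, with a median of 4088, 3365 and 3115 UMIs a cell. Their median mitochondrial share was 4.46, 4.67 and 5.08%. Xist stood at 1101 CPM (counts per 1000000 of the members' UMIs) in WT healthy and at 0 in both tumour libraries, and the Y-linked Ddx3y at 0, 67.1 and 81.8 CPM. The labels name both sexes at about equal numbers, and in the members' transcripts sex and tumour cannot be told apart. Pairs of libraries shared 4, 5 and 6 barcodes among all cells and 0 among members.

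Of the 557 members, 40 carried many transcripts of macrophages or monocytes as well as those of T cells. They had at least 5 UMIs over 11 genes of such cells (Tyrobp, Fcer1g, Csf1r, Cd68, C1qa, C1qb, C1qc, Lst1, Fcgr3, Adgre1 and Cd14), a limit set after the data were seen. In WT healthy 6 members passed it, in WT tumour 7 and in PPARg-/- tumour 27, which is 5.71, 3.63 and 10.4% of the members. The fewest such UMIs in one of these cells was 32, 30 and 7, and the most in any other member was 3, 3 and 4. The groups of cells were thus well apart in the WT libraries and by few UMIs in PPARg-/- tumour. These cells had a median of 14876, 11536 and 10528 UMIs against 4020, 3313 and 3028 in the other members, and they held 17.4, 13.5 and 31.4% of all the members' UMIs. Their median of CD8 UMIs was 5, 5 and 4, as in the other members. The doublet caller Scrublet marked 21 of the 40 and no other member. Among effector CD8 T cells, the same limit was passed by 3.50, 7.12 and 10.8% of cells.

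**Figure D1:**
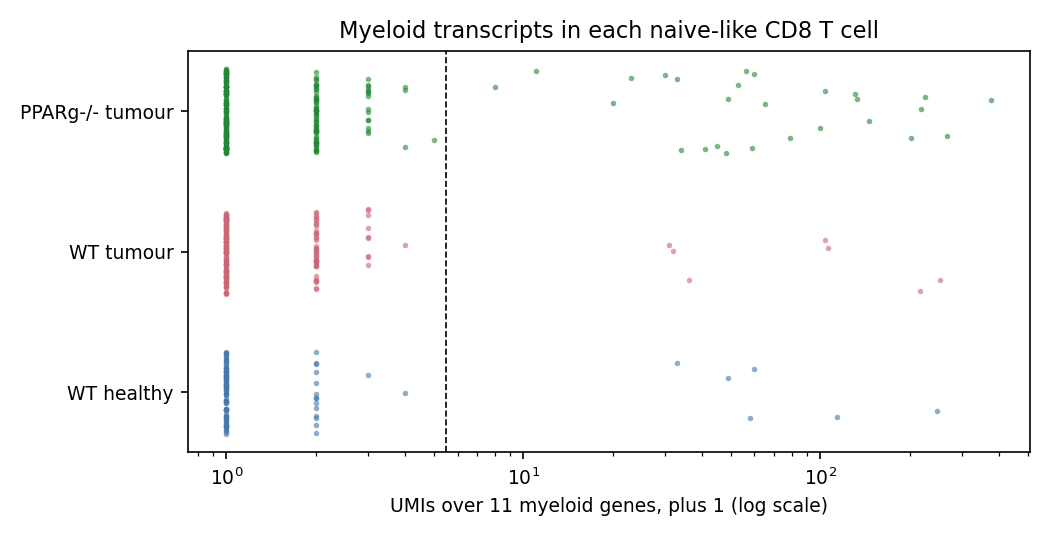
Each point is 1 member, in a row for its library, with its UMIs over the 11 macrophage and monocyte genes plus 1 on a log axis; the dashed line marks the limit of 5 UMIs. The 40 cells past the line include 27 of PPARg-/- tumour, and most lie far from the other members of their library.

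In these 40 cells lysozyme (Lyz2) stood at 5583, 27913 and 22409 CPM. Apoe, a lipid carrier of macrophages, stood at 3090, 539 and 5531 CPM, so the 2 tumour libraries had different macrophage transcripts in them. The scavenger receptor Marco, which the rule had capped, was at 0, 10.2 and 0 CPM. The main results are therefore given with all 557 members and with the 517 that remain without these cells. A level in CPM below is over the 517 unless all members are named.

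The label was checked against 5 markers. Cd8a and Cd8b1, the chains of the CD8 co-receptor, had served to choose the cells. Both chains were detected in 80 of 105, 140 of 193 and 178 of 259 members. A further 22, 51 and 75 had only Cd8b1, and 3, 2 and 6 had only Cd8a. Cd8b1 is the chain of the αβ heterodimer of conventional CD8 T cells. Cd8a stood at 381, 427 and 416 CPM and Cd8b1 at 1029, 1128 and 1073 CPM, level across the libraries within the counting error. The gamma-delta T cell genes summed to 0, 31.5 and 24.4 CPM in all members.

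The other 3 markers had no part in the rule. Lef1, a transcription factor of naive and developing T cells, stood at 629 (95% interval 553 to 711), 482 (430 to 540) and 526 (475 to 581) CPM. Dapl1, a gene of unclear function with high levels in naive T cells, stood at 338 (284 to 400), 517 (463 to 576) and 612 (557 to 672) CPM. Ccr9, a chemokine receptor of thymocytes, naive CD8 T cells and gut-homing T cells, stood at 240.4 (195 to 294), 114 (89.1 to 143) and 112 (89.3 to 139) CPM. WT healthy was thus highest in Ccr9 and lowest in Dapl1, and highest in Lef1 by less than 1.5-fold. The intervals are exact Poisson intervals and cover counting error only, here and throughout.

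**Figure D2:**
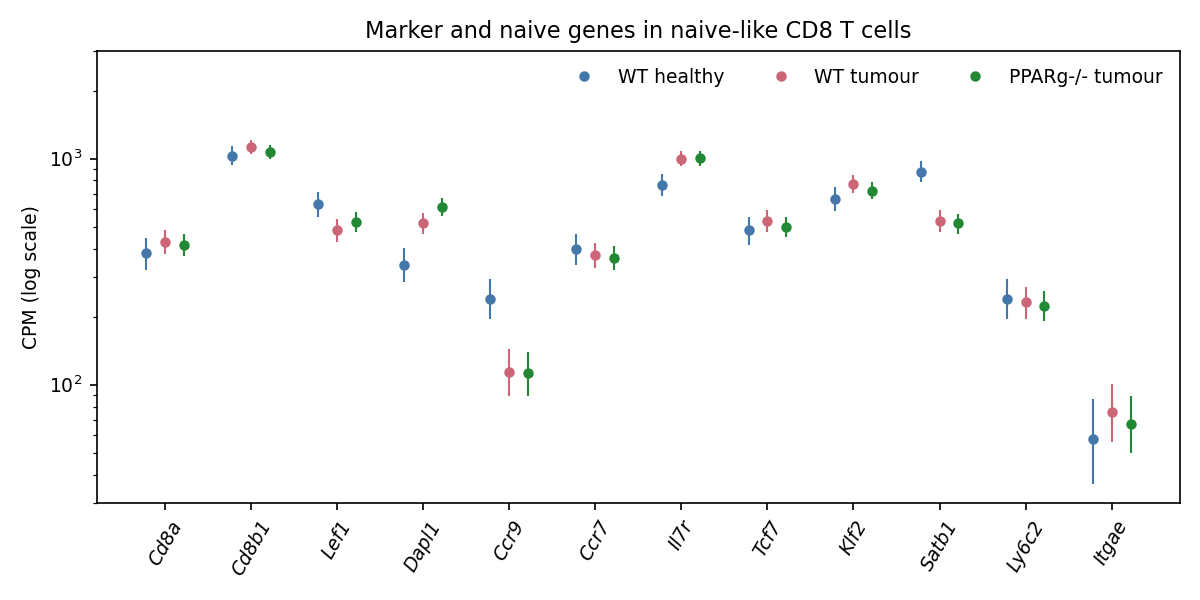
Level in CPM, on a log axis, of the markers and of genes of naive and other T cells in each library, over the members without the 40 cells with macrophage or monocyte transcripts; bars are exact 95% Poisson intervals. Ccr9 and Satb1 are highest in WT healthy and Dapl1 is lowest there, while Ccr7 and Cd8b1 are close in the 3 libraries.

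Counted without evening out depth, 89, 146 and 191 members had a UMI of Lef1, 51, 97 and 143 of Dapl1 and 51, 48 and 70 of Ccr9. All of the 3 were detected in 18, 16 and 24 members and none of them in 5, 20 and 21. With each cell thinned at random to 1000 UMIs, Lef1 was seen in 39.4, 37.1 and 39.2% of the members without the 40 cells, and in 0.183, 0.455 and 0% of the macrophages of the same libraries. Ccr9 was seen in 23.2% (15.3 to 32.8, exact binomial), 9.14% (5.41 to 14.2) and 12.9% (8.90 to 17.9) of them, against 0.758, 0.800 and 0.752% of CD4 T cells. Detection of Ccr9 was thus above its level in CD4 T cells in all 3 libraries and most frequent in WT healthy.

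Ccr7, which guides T cells into lymph nodes, stood at 398, 373 and 364 CPM. The interleukin 7 receptor (Il7r) stood at 766, 999.5 and 1003 CPM, and after thinning it was seen in 42.4, 53.8 and 61.2% of cells. Tcf7 stood at 481, 530 and 499 CPM and Klf2, which keeps T cells quiet and recirculating, at 661, 773 and 722 CPM. None of these 4 genes passed the limit of 1.5-fold in either comparison. Satb1, a chromatin organiser of thymocytes and naive T cells, stood at 877, 530 and 516 CPM, with WT healthy above both tumour libraries.

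Genes of effector and memory cells were compared with effector CD8 T cells. After thinning, granzyme K (Gzmk) was seen in 0 of 99, 0 of 186 and 0 of 232 members without the 40 cells, which allows shares of cells with a UMI of up to 3.03, 1.61 and 1.29% by the limit of 3 cells of the total. The exact 95% binomial upper limits are 3.66, 1.96 and 1.58%. In effector CD8 T cells Gzmk was seen in 0.699, 6.44 and 8.14% of cells. Cd44, an adhesion receptor raised on antigen-experienced T cells, was seen in 3.03, 2.15 and 3.02% of members and 3.50, 9.83 and 5.81% of effector CD8 T cells. The memory chemokine receptor Cxcr3 was seen in 1.01, 0.538 and 0.862% of members and 0.699, 6.44 and 6.98% of effector cells. In WT healthy these 3 genes were thus about as rare in effector cells as in members. Il2rb, the interleukin 2 and 15 receptor chain of memory CD8 T cells, was seen in 4.04, 3.23 and 5.60% of members and 21.0, 11.2 and 13.7% of effector cells. The proliferation gene Mki67 was seen in 1.01, 0.538 and 0.862% and the checkpoint receptor Pdcd1 in none. Ly6c2, a surface protein of memory CD8 T cells and of some naive ones, was seen in 9.09, 15.6 and 11.6%. Without thinning more members showed such genes, with Ly6c2 in 31.3, 29.6 and 27.6%, Il2rb in 23.2, 15.6 and 15.1% and Cd44 in 6.06, 4.30 and 4.31%.

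The edge of the rule lay inside a continuum of CD8 T cells. Over the 3 libraries without the cells rich in macrophage or monocyte transcripts, 276 members had 0 UMIs of Ccl5 and Nkg7 and 241 had 1, and just outside 175 cells had 2 and 92 had 3. From 0 to 3 such UMIs, Lef1 stood at 520, 548, 476 and 534 CPM and Dapl1 at 517, 515, 595 and 596 CPM. Ly6c2 stood at 152, 316, 498 and 514 CPM in the same order. Over the 3 libraries Lef1 and Dapl1 were thus close on both sides of the edge while Ly6c2 was higher outside it. In WT healthy alone Dapl1 stood at 274, 408, 571 and 551 CPM, so it was lower inside the edge there. At the edge set by CD8, the 82 cells with 1 UMI of Cd8a and Cd8b1 had Lef1 at 492 CPM, against 525 CPM in the 60 with 2 and 541 CPM in the 107 with 3 that lay inside. In the same order Dapl1 stood at 403, 453 and 620 CPM and Ccr9 at 55.1, 105 and 141 CPM, so both were higher with more CD8 UMIs.

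Effector CD8 T cells here are cells past the same gates with at least 2 UMIs of Ccl5 and Nkg7 (143, 295 and 344 cells), and CD4 T cells are those with Cd4, without Cd8a, Cd8b1 and Foxp3 and past the other gates (264, 250 and 266 cells). Members were 42.3% (36.1 to 48.8, exact binomial) of CD8 T cells in WT healthy, 39.5% (35.2 to 44.0) in WT tumour and 43.0% (39.0 to 47.0) in PPARg-/- tumour. The 3 intervals overlap. Without the 40 cells and their counterparts among effector cells, the shares were 41.8, 40.4 and 43.0%. These shares depend on the depth of a cell, since a deeper cell more often shows 2 UMIs of an effector gene: with each cell thinned to 2000 UMIs before the gates they were 61.1, 57.1 and 60.4%. WT tumour had the lowest share either way.

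Beside effector CD8 T cells the values are a description, since the rule had set these populations apart by 2 effector genes. The values leave out cells past the macrophage and monocyte limit from both populations, while the genes were chosen on all cells. In log2 units Ccr9 was higher in members by 1.61, 1.33 and 0.85, the adhesion receptor Pecam1 by 1.05, 1.12 and 0.91 and Lef1 by 0.85, 0.73 and 0.78. The marker Dapl1 stood at 356, 357 and 307 CPM in effector CD8 T cells. It was thus higher in members in both tumour libraries, but not in WT healthy, where the intervals overlap. Granzyme A (Gzma) had 0, 0 and 4 UMIs in members and stood at -6.13, -6.00 and -7.30, with the floor of 3 UMIs in place of 0. Granzyme B (Gzmb) had 0 in each library and stood at -4.21, -3.37 and -4.33 with that floor. The DNA topoisomerase of dividing cells Top2a was lower at -4.03, -2.44 and -2.93. The list of naive and quiescence genes had medians of 0.30, 0.41 and 0.48, and that of proliferation genes -2.02, -1.16 and -1.16.

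Beside CD4 T cells, with the same cells left out, the integrin chain Itgae was higher by 3.84, 4.84 and 5.54, Ccr9 by 4.73, 4.11 and 2.82 and Runx3, the transcription factor that sets the CD8 lineage, by 2.43, 2.32 and 2.15. Lef1 did not set members apart from CD4 T cells, where it stood at 693, 510 and 536 CPM, no lower than in members. The CD40 ligand (Cd40lg), with which CD4 T cells help other cells, was lower at -5.53, -5.33 and -4.83. Zbtb7b, the transcription factor that sets the CD4 lineage, was lower at -3.01, -4.65 and -4.60, the first with the floor of 3 UMIs in place of 0. Over all cells its values were -2.28, -2.84 and -1.80. Ly6c2 was higher by 2.73, 4.64 and 3.81 (1.26, 3.37 and 3.28 over all cells) and its neighbour Ly6c1 lower at -5.03, -5.74 and -4.85. Reads of such similar genes can be split in counting, so their values are uncertain.

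**Figure D3:**
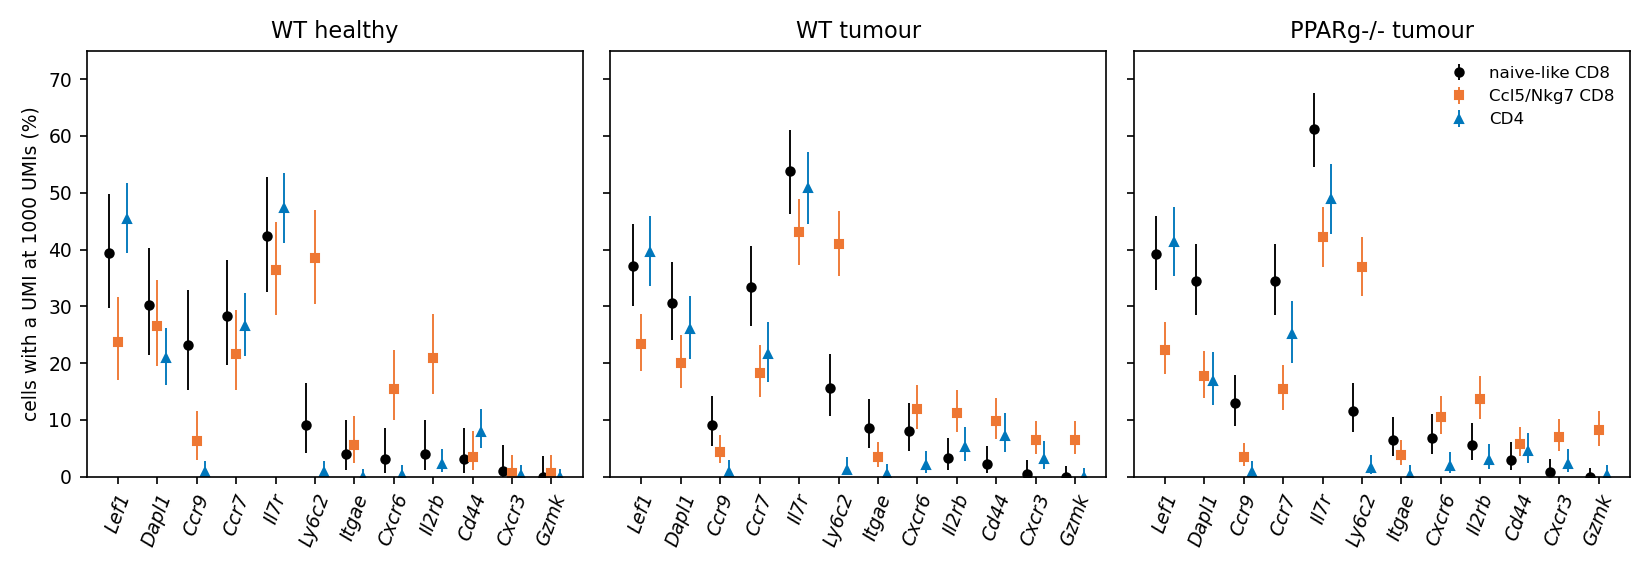
Share of cells with at least 1 UMI of a gene after each cell was thinned to 1000 UMIs, for members without the 40 cells with macrophage or monocyte transcripts (naive-like CD8), effector CD8 T cells (Ccl5/Nkg7 CD8) and CD4 T cells, 1 panel a library; bars are exact 95% binomial intervals. Ccr9 is most frequent in members in each panel and Gzmk is seen in none of them.

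The first comparison sets WT tumour beside WT healthy and bears on tumour-bearing against healthy lung. A gene was called where it had at least 20 UMIs over both libraries, differed by at least 1.5-fold and had an exact 95% interval of the ratio that excluded no difference, which sorts genes by size and tests nothing. Members in the WT tumour library had lower levels of immediate-early genes, heat shock genes and several genes of T cell receptor signalling and of thymocytes. Bcl2, Dapl1, Thy1 and Cxcr6 were higher. Over all members and 6034 genes, 235 genes (3.89%) were higher and 511 (8.47%) lower, 12.4% in either direction, and the median of all log2 ratios was -0.08. Scaling by trimmed means of M values moved that median to 0.05 and the split to 388 higher and 343 lower, so the balance of higher and lower genes rests on the scaling. With the 40 cells left out, 5170 genes were tested, of which 179 (3.46%) were higher and 357 (6.91%) lower, 10.4% in either direction, and the median was -0.07.

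Immediate-early genes are switched on within minutes of a signal, among them that of the T cell receptor, and also by tissue digestion. Of 22 measured in all members, 14 were called lower and 0 higher, and the median of their log2 ratios was -1.24. Without the 40 cells 10 of 20 were called lower and 0 higher, with a median of -0.85. The orphan nuclear receptor Nr4a1, which T cells make upon receptor signalling, stood at 67.6 (27 UMIs), 0 and 35.6 (26 UMIs) CPM. WT tumour alone had none. With a floor of 3 UMIs set for it the log2 ratio was -3.83, and the exact interval ended at -3.44. Over all members Nr4a1 stood at 141, 5.48 and 117.5 CPM, and the 40 cells held 60.3, 100 and 79.2% of its UMIs. After thinning it was seen in 6.06, 0 and 3.88% of members and in 3.85, 2.50 and 4.76% of macrophages of the same libraries (546, 440 and 21 cells, with an interval of 0.12 to 23.8% in the last). The log2 ratio of Nr4a1 was -0.89 in effector CD8 T cells and 0.06 in CD4 T cells, and -1.58 and -0.55 without cells past the same macrophage and monocyte limit.

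Other members of the list are the phosphatase gene Dusp1, which damps MAP kinases, at 87.7, 17.4 and 24.7 CPM with a log2 ratio of -2.33 (-3.46 to -1.32). The AP-1 subunit gene Fosb stood at 42.6, 12.7 and 16.4 CPM and the NF-κB inhibitor gene Nfkbid at 65.1, 17.4 and 28.8 CPM, with ratios of -1.75 and -1.90. Junb, another AP-1 subunit, stood at 408, 218 and 263 CPM and Dusp2 at 273, 106 and 67.1 CPM. WT healthy was the highest library in each of these 5 genes. The same list had 9 of 26 genes called lower in effector CD8 T cells and 9 of 24 in CD4 T cells, where 1 was higher, with a median of -0.33 in both. Of all genes tested in these cells, 4.21 and 4.84% were called lower and 8.22 and 6.03% higher. Without cells past the macrophage and monocyte limit, 14 of 25 genes of the list were called lower in effector CD8 T cells, with a median of -0.62, and 10 of 24 in CD4 T cells, with a median of -0.55 and 0 higher. The shares of all genes were then 4.31 and 5.21% lower and 3.8 and 4.74% higher. Members of the list were thus called lower outside the naive-like cells too.

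Heat shock genes encode chaperones that refold proteins after heat, digestion or other stress. Of 17 measured, 10 were called lower and 0 higher, both with and without the 40 cells, and the medians were -0.74 and -0.71. The chaperone gene Hsph1 stood at 115 (84.3 to 154), 23.7 (13.3 to 39.1) and 82.2 (62.7 to 106) CPM. WT tumour was below the others, with a log2 ratio of -2.28 (-3.23 to -1.41). Hsp90aa1 stood at 806, 266 and 421 CPM with a ratio of -1.60, and the co-chaperone genes Dnaja1 and Stip1 had ratios of -1.17 and -1.23. In effector CD8 T cells without cells past the macrophage and monocyte limit Hsph1 stood at 189, 58.4 and 93.5 CPM and in such CD4 T cells at 137, 42.3 and 63.7 CPM, in the same order of libraries. In these cells 9 of 17 heat shock genes were called lower in each, with medians of -0.65 and -0.63. The part of tissue digestion and handling in the levels of both lists was not tested.

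The promoters of 3 genes of these lists are shown because those genes stood low in WT tumour together, with the short motifs that factors of each programme are known to bind in capitals. Sequences are from RefSeq on GRCm38.p6 and run 5′ to 3′ on the strand of the gene. The windows of Nr4a1 and Hspa1a end at the RefSeq start of the gene and that of Hsph1 ends with its motif, 25 bases short of it. For the CREB and ATF family the motif searched was TGACG on both strands (CGTCA on the other), and for heat shock factors GAANNTTC and TTCNNGAA, each of which reads the same on both strands. The windows are Nr4a1 at chr15:101266596-101266845 (plus strand), Hsph1 at chr5:149636362-149636586 (minus strand) and Hspa1a at chr17:34972157-34972406 (minus strand). The Nr4a1 window lies within the annotated span of the gene, and the last 15 bases of the Hsph1 window lie within the annotated span of that gene.
Nr4a1: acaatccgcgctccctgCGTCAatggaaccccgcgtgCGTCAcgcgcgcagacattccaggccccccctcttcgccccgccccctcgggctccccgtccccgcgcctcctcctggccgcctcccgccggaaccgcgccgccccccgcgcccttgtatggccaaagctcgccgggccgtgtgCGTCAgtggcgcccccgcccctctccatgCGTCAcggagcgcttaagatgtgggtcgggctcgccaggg
Hsph1: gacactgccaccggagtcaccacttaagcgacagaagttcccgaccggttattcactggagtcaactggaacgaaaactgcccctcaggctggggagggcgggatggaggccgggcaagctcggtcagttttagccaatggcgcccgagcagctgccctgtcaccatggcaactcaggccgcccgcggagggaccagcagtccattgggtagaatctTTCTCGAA
Hspa1a: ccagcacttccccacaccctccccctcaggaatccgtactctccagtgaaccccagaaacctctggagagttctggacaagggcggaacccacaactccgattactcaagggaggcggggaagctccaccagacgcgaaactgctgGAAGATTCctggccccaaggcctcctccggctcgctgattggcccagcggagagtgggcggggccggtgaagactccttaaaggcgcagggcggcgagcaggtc

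The Nr4a1 window held 4 matches to the CREB and ATF motif. The Hsph1 window held 1 match to TTCNNGAA, 26 to 33 bases before the start, and the Hspa1a window 1 match to GAANNTTC, 97 to 104 bases before it. Over windows of 250 bases before the start, TGACG or CGTCA was found in 13 of 21 immediate-early genes, in 8 of 16 heat shock genes and in 5347 of all 27025 genes (19.8%). Either heat shock motif was found in 3 of 21 immediate-early genes, in 8 of 16 heat shock genes and in 3932 of 27025 genes (14.5%). Matches are a description of these letters. Hspa1a, whose near-identical neighbour Hspa1b can share its reads and makes its value uncertain, stood at 150.3, 77.5 and 152 CPM.

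**Figure D4:**
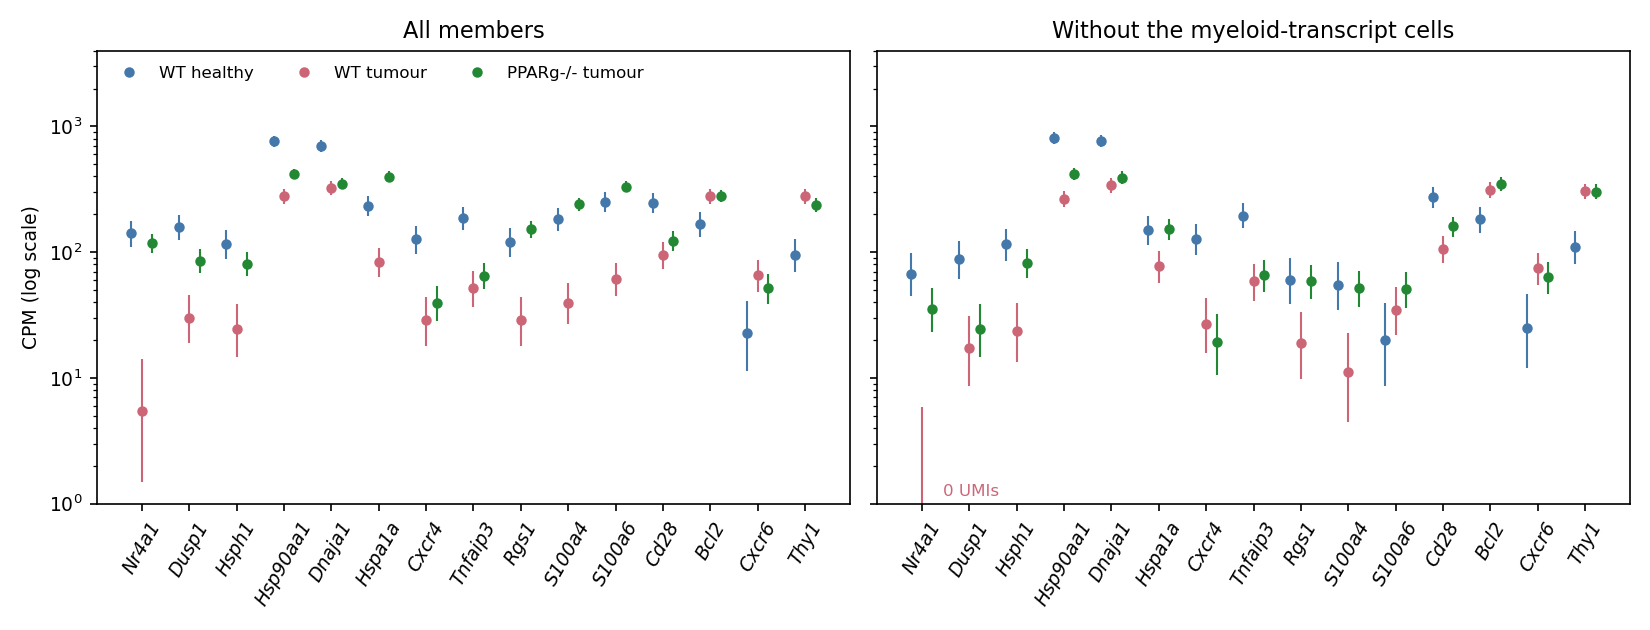
Level in CPM, on a log axis, of genes named in the comparisons, over all members (left) and without the 40 cells with macrophage or monocyte transcripts (right), 1 point a library with its exact 95% Poisson interval; with 0 UMIs only the interval is drawn. In both panels Nr4a1, Hsph1 and Cxcr4 are lower in WT tumour than in WT healthy and Thy1, Bcl2 and Cxcr6 higher, whereas S100a6 is lower in WT tumour than in WT healthy only in the left one.

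In the list of T cell receptor signalling, 5 of 29 measured genes were called lower and 0 higher in all members, and 4 were lower without the 40 cells. The co-stimulatory receptor Cd28 stood at 273, 106 and 160 CPM, with a log2 ratio of -1.37. The ubiquitin ligase gene Cblb, which restrains the receptor, stood at 183, 79.1 and 101 CPM, and the phosphatase gene Ptpn22, also a restraint, at 336, 179 and 170 CPM. Themis, which tunes receptor signalling in thymocytes, stood at 296, 180 and 163 CPM. WT healthy was the highest library in these 4 genes. The list as a whole had a median of -0.12 in all members, which scaling by trimmed means turned to 0.012. The inducible co-stimulator Icos stood at 97.7, 19.0 and 38.4 CPM, with a ratio of -2.36. These genes also had ratios below 0 in effector CD8 and CD4 T cells without cells past the macrophage and monocyte limit. Cd28 had -0.83 and -0.79 there, Icos -0.83 and -0.58 and Cblb -0.25 and -0.88. Ptpn22 had -0.35 and -0.38 and Themis -0.25 and -0.77.

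Among genes of thymocytes and recent thymic emigrants, 4 of 7 were called lower and 0 higher in all members (4 of 6 without the 40 cells), with a median of -0.72 in both. They were the transcription factor Myb at 42.6, 12.7 and 31.5 CPM, Ccr9, Satb1 and Themis, of which Ccr9 had a log2 ratio of -1.08 (-1.54 to -0.62) and Satb1 of -0.73 (-0.95 to -0.51). Satb1 was also lower in WT tumour in effector CD8 T cells (583, 371 and 347 CPM without cells past the macrophage and monocyte limit) and in CD4 T cells (1083, 560 and 582 CPM). In the list of naive and quiescence genes, 3 of 26 were called higher and 2 lower. Lower were Satb1 and Tob1, an antiproliferative gene, at 72.6, 30.1 and 32.9 CPM. Higher were Dapl1, the survival gene Bcl2 and Nsg2, at 60.1, 98.1 and 82.2 CPM. The median of the list was -0.13, and 0.00438 with scaling by trimmed means.

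Bcl2, which keeps naive T cells alive downstream of interleukin 7, stood at 183 (143 to 230), 312 (270 to 358) and 351 (309 to 396) CPM. Its antagonist Bcl2l11, which encodes BIM, stood at 95.2, 39.5 and 34.3 CPM, with log2 ratios of 0.77 and -1.27 for the 2 genes. WT healthy was lowest in Bcl2 and highest in Bcl2l11, and the tumour libraries were close to each other in both. Both genes lay the same way in effector CD8 and CD4 T cells without cells past the macrophage and monocyte limit. There the ratio of Bcl2 was 0.77 and 0.56 and that of Bcl2l11 -0.81 and -0.80. In the survival and apoptosis list, 1 of 12 genes was called higher and 4 lower in all members, and 1 of 10 in each direction without the 40 cells.

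Of the chemokine receptors, Cxcr4, which binds CXCL12, stood at 128, 26.9 and 19.2 CPM, with a ratio of -2.25. Its ratio was -2.02 in effector CD8 and -1.16 in CD4 T cells without cells past the macrophage and monocyte limit. Cxcr6, a receptor of T cells that reside in tissue, stood at 25.1, 74.3 and 63.0 CPM, with a ratio of 1.57 (0.57 to 2.72). Cxcr6 was in effector CD8 T cells after thinning in 15.4, 11.9 and 10.5% of cells and in 3.03, 8.06 and 6.90% of members. In the homing list 1 of 19 genes was thus called higher and 2 lower, the other being Ccr9. Of the tissue residency list, 1 of 7 was higher (Cxcr6) and 2 lower, Rgs1 and Rgs2, which damp chemokine receptor signalling, with ratios of -1.66 and -0.86.

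In the memory and effector list, 1 of 20 genes was called higher and 6 lower in all members, with a median of -0.34, and 1 of 15 in each direction without the 40 cells, with a median of -0.06. Those were the NK receptor chain Klrd1, at 105, 207 and 164 CPM, and the calcium-binding S100a4, at 55.1, 11.1 and 52.1 CPM. S100a6, called lower in all members at 250, 61.6 and 333 CPM, stood at 20.0, 34.8 and 50.7 CPM without the 40 cells, which held 93.4, 51.1 and 89.5% of its UMIs. The call on S100a6 thus rests on those cells. Of the cytotoxicity and checkpoint lists, 3 and 4 genes were measured and 0 called.

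In the MHC class I list, 3 of 21 genes were called higher and 1 lower. The nonclassical H2-Q7 stood at 361, 652 and 760 CPM and H2-Q6 at 57.6, 127 and 140 CPM, while the classical H2-D1 stood at 1846, 1229 and 1297 CPM. They lay the same way in effector CD8 and CD4 T cells without cells past the macrophage and monocyte limit. The ratios there were 0.87 and 0.82 for H2-Q7, 1.33 and 1.69 for H2-Q6 and -0.58 and -0.70 for H2-D1. Genes of this family share long stretches of sequence, and their reads can be split between copies. Of 36 interferon response genes, 2 were called higher and 1 lower, with a median of 0.04 (-0.04 without the 40 cells). Ifit3, an antiviral gene, stood at 7.51, 28.5 and 30.1 CPM, Iigp1, a GTPase gene, at 57.6, 96.5 and 53.4 CPM, and Rtp4 had a ratio of -1.40. Of the cytokine receptor list 1 of 24 genes was called lower, Il6st, the shared chain of the interleukin 6 receptors, at -0.83.

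Metabolic and growth lists held few calls. In all members 0 of 11 glycolysis genes, 0 of 8 cholesterol synthesis genes and 0 of 7 proliferation genes were called, and 1 of 26 oxidative phosphorylation genes was higher. Without the 40 cells the hexokinase gene Hk1 was called higher at 1.92, the complex I subunit gene Ndufb9 higher at 0.68 and Cycs, which encodes cytochrome c, lower at -0.81. Of 77 ribosomal protein genes 2 were called higher, Rpl29 at 416, 1298 and 1577 CPM and Rps18 at 3176, 5598 and 5425 CPM. Both have processed copies in the genome, so the values are uncertain.

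**Figure D5:**
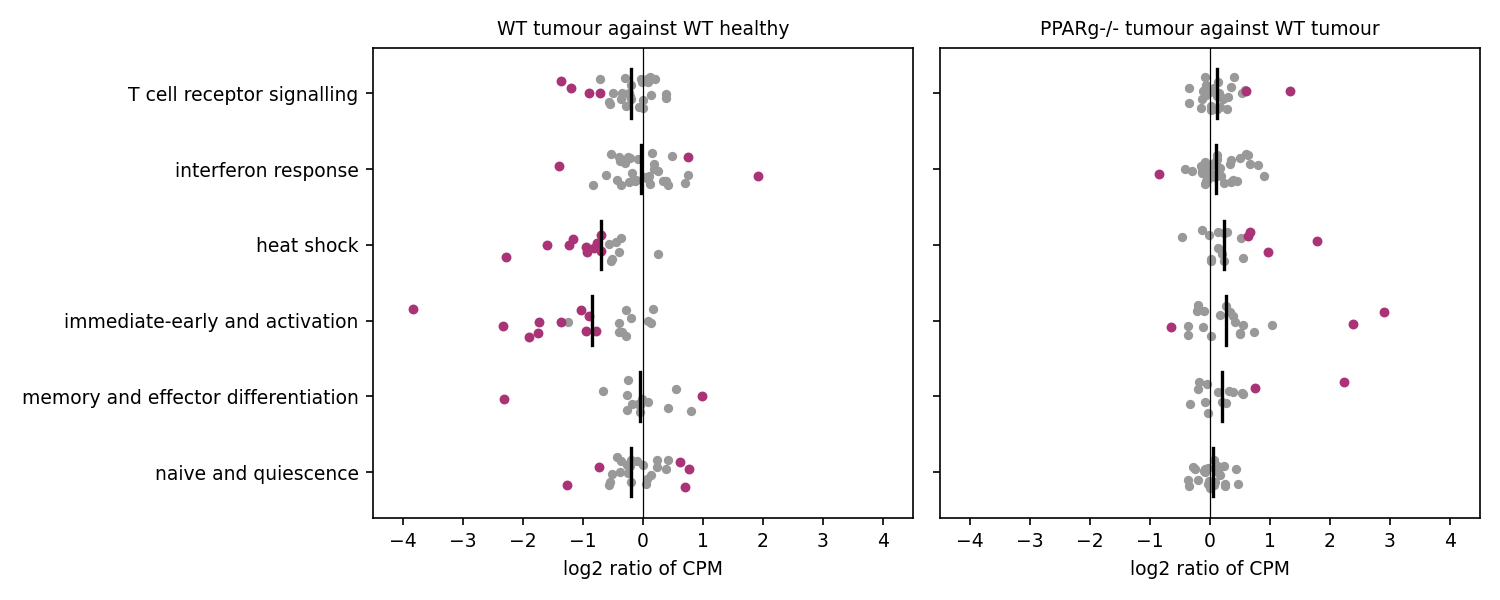
Log2 ratio of each measured gene of 6 lists in both comparisons, over the members without the 40 cells with macrophage or monocyte transcripts; each point is a gene, coloured where it was called, and a black bar is the median of its list. Called genes of the immediate-early and heat shock lists all lie below 0 in WT tumour against WT healthy, and the naive list has no called gene in PPARg-/- tumour against WT tumour.

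By size alone, the lowest genes without the 40 cells were Gdpd3, a phospholipase gene, at 85.2, 1.58 and 27.4 CPM, Icos, Dusp1, Hsph1, Cxcr4, the guanylate-binding Gbp8 at 75.1, 17.4 and 63.0 CPM, Slmap and Nfkbid. Highest were Sftpa1, Sftpb and Sftpc, which encode surfactant proteins of the alveolar epithelium, then Colgalt1, Cd74, Smim8, Dctn2 and H2-Aa. Outside the rule for naming genes, and chosen after their values were seen, are Thy1, a surface protein of all mouse T cells, at 110, 305 and 303 CPM, and Dnajc15 at 92.7, 294 and 230 CPM, which had ratios of 1.47 and 1.67. In effector CD8 and CD4 T cells without cells past the macrophage and monocyte limit the ratio of Thy1 was 0.81 and 1.02 and that of Dnajc15 0.84 and 0.80. Gdpd3 had ratios of -4.85 and -4.48 in the same cells and Gbp8 of -1.37 and -2.61, so both were lower outside the members too.

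Surfactant and MHC class II transcripts were also present in other cells and in free RNA. Sftpc stood at 42.6, 495 and 226 CPM in members, at 33.2, 525 and 233 CPM in CD4 T cells without cells past the macrophage and monocyte limit and at 3556, 23475 and 15800 CPM in barcodes of 10 to 100 UMIs, which hold free RNA. Its order of libraries was the same in all of these. Of 5 epithelial genes measured in all members, 4 were called higher and 1 lower. Cd74, the MHC class II chaperone, stood at 15.0, 120 and 42.5 CPM. Summed over 17 macrophage genes, members had 3372, 7459 and 13554 CPM with the 40 cells and 809, 1439 and 1849 CPM without them, with 5, 0 and 1 of the genes at 0. Without those cells, summed B cell genes stood at 250.5, 386 and 294.5 CPM, dendritic cell genes at 338, 299 and 223 CPM and NK genes at 80.1, 114 and 97.3 CPM. The dendritic cell genes include Ccr9, a marker of the members, with 96, 72 and 82 UMIs. Their sum and its order of libraries are thus not those of dendritic cell transcripts alone. The part of free RNA in the surfactant and MHC class II values was not tested.

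The second comparison sets PPARg-/- tumour beside WT tumour and bears on the loss of Pparg in cells with Csf1r-driven Cre. Csf1r is a gene of monocytes and macrophages, and whether this Cre acted in the members was not tested. Over all members Pparg stood at 10.4, 20.5 and 50.8 CPM (5, 15 and 54 UMIs), and without the 40 cells at 0, 0 and 6.85 CPM (5 UMIs). Reads at the 3' end check nothing on the deletion, since the floxed exons are not named in the labels. Nr4a1, Hsph1, Rgs1 and S100a4 were higher in PPARg-/- tumour, with and without the 40 cells, and the naive genes did not pass the limit of 1.5-fold. Without the 40 cells, Nr4a1 and S100a4 fell short of the limits for ranking genes by size. Those limits were at least 30 UMIs in at least 10 cells and no cell over 20% of them.

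Over all members and 7316 genes, 542 (7.41%) were higher and 159 (2.17%) lower, 9.58% in either direction, with a median of 0.04. Without the 40 cells 5965 genes were tested, of which 140 (2.35%) were higher and 122 (2.05%) lower, 4.39% in either direction, with a median of 0.01. The count of higher genes thus rests on those cells: of the 542, 83 were called in both sets, and of the other 459, 305 no longer reached 20 UMIs. Highest over all members were Ecm1 (83 UMIs against 1, a log2 ratio of 5.83), Smpdl3b, Nav1, Nr4a1, Lpcat2, Ccrl2, Pdgfb and Slc11a1.

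Of 27 naive and quiescence genes measured, 0 were called in either direction, with a median of -0.13 over all members and 0.05 without the 40 cells. Between WT tumour and PPARg-/- tumour the log2 ratio without the 40 cells was 0.12 (-0.10 to 0.35) for Lef1, 0.24 (0.03 to 0.45) for Dapl1, -0.02 (-0.49 to 0.46) for Ccr9, -0.04 (-0.28 to 0.21) for Cd8a and -0.07 (-0.22 to 0.08) for Cd8b1. Of 77 ribosomal protein genes and of 21 MHC class I genes, 0 were called.

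Of the immediate-early list 10 of 22 genes were called higher and 0 lower in all members, with a median of 0.59, but 2 of 21 were higher and 1 lower without the 40 cells, with a median of 0.27. The higher genes were Nr4a1, with a ratio of 2.91 against the floor of 3 UMIs in WT tumour and an exact interval from 2.51 upward, and Nr4a2, its paralogue, at 40.1, 4.74 and 24.7 CPM. The lower gene was Dusp2, with a ratio of -0.66. Egr1 stood at 66.2, 10.9 and 63.0 CPM in all members and at 30.1, 12.7 and 26.0 CPM without the 40 cells, where it was not called. In CD4 T cells Nr4a1 stood at 78.2, 81.8 and 51.4 CPM and in effector CD8 T cells at 107, 57.5 and 117 CPM. Without cells past the macrophage and monocyte limit these were 71.5, 48.9 and 49.2 CPM in CD4 T cells and 71.8, 24.1 and 41.9 CPM in effector CD8 T cells. WT tumour was thus lowest in effector CD8 T cells either way, while in CD4 T cells the order of the libraries depended on those cells.

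Of the heat shock list, 5 of 18 genes were called higher in all members and 4 of 17 without the 40 cells, with 0 lower in both. Hsph1 had a log2 ratio of 1.79 (0.96 to 2.72), Hspa1a of 0.97, Hsp90aa1 of 0.66 and Hspa1b of 0.64. In effector CD8 and CD4 T cells without cells past the macrophage and monocyte limit the ratio of Hsph1 was 0.68 and 0.59. The median of the list was 0.16 in all members and 0.23 without the 40 cells. Of this list 3 of 18 genes were called higher and 1 lower in effector CD8 T cells, and 0 of 18 in CD4 T cells, and of the immediate-early list 6 of 26 higher and 1 lower in effector CD8 T cells and 0 of 23 higher and 5 lower in CD4 T cells. Of all genes tested in effector CD8 and CD4 T cells, 5.9 and 3% were higher and 2.69 and 4.41% lower. Without cells past the macrophage and monocyte limit, the heat shock list had 3 of 17 higher and 0 lower in effector CD8 T cells and 2 of 17 higher and 1 lower in CD4 T cells. The immediate-early list then had 5 of 25 higher and 2 lower in effector CD8 T cells and 0 of 22 higher and 1 lower in CD4 T cells. Of all genes tested, 3.21 and 1.89% were then higher and 2.17 and 4.69% lower.

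In the memory and effector list 10 of 20 genes were called higher and 0 lower in all members, with a median of 0.64. Without the 40 cells 2 of 15 were, with a median of 0.20. These were S100a4, with a ratio of 2.23 (1.05 to 3.64), and Lgals1, which encodes galectin-1, at 67.6, 56.9 and 95.9 CPM. Rgs1 stood at 60.1, 19.0 and 58.9 CPM, with a ratio of 1.63 (0.69 to 2.69), and at 120, 28.7 and 152 CPM in all members.

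Calls in several other lists also changed when the 40 cells were left out, some lost and some gained. Of the cytotoxicity list 3 of 8 genes, led by the chemokine gene Ccl3 at 4.02, and of the homing list 3 of 20, among them Cx3cr1 and Ccr2, were called higher in all members, and 0 of 5 and 0 of 17 without the 40 cells. Of T cell receptor signalling genes, Sit1, an adaptor that restrains the receptor, was called without them at 17.5, 15.8 and 39.7 CPM with a ratio of 1.33, and Cd28 with a ratio of 0.60, while Cd5 was lower in all members at -0.63. Of the thymocyte list Sox4 and Myb were higher without the 40 cells, at 1.56 (0.06 to 3.35) and 1.32 (0.10 to 2.69). Myb lay the other way in effector CD8 T cells, at -1.73, and in CD4 T cells, at -0.28, without cells past the macrophage and monocyte limit. Of the interferon list Iigp1 was lower in both sets, at -0.99 and -0.85, whereas Isg15 and Irf7 were higher in all members only. The glycolysis genes Hk2 and Pgam1, the cholesterol gene Mvd and the checkpoint genes Ctla4 and Entpd1 were called higher in all members and not without the 40 cells.

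By size, the highest genes without the 40 cells were Apoe, Hist1h4h, Gbp8, Hsph1, Xrcc5, Sik1, Ube2a and Rgs1. Apoe stood at 10.0, 22.1 and 179.5 CPM, with a ratio of 3.02 (2.22 to 3.93), while in all members the 40 cells held 98.5, 79.1 and 93.4% of its UMIs. Without cells past the macrophage and monocyte limit the ratio of Apoe was 2.80 in effector CD8 T cells and 2.91 in CD4 T cells, and the part of free RNA in it was not tested. Gbp8 had ratios of 1.51 and 2.41 in the same effector CD8 and CD4 T cells. Sik1, a kinase gene induced by cAMP, stood at 45.1, 11.1 and 37.0 CPM. Among the lowest were Tmem256, Cxcl15, App, Smc2, Ear2, H2-Ab1 and Cstf2. Of 6 epithelial genes measured in all members 5 were called lower, among them Sftpc and Cxcl15.

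Both comparisons share the WT tumour library, so a gene that was low there was set apart in both at once. Without the 40 cells, Nr4a1, Hsph1, S100a4, Rgs1 and Gbp8 stood low in WT tumour, with both other libraries above it. Of these, Nr4a1 and S100a4 fell short of the UMI and cell limits for ranking by size in both comparisons. Hsph1 and Gbp8 were lowest in WT tumour in effector CD8 and CD4 T cells too, without cells past the macrophage and monocyte limit. Rgs1 and S100a4 were not. Dusp1, Cxcr4, Ccr9, Satb1, Bcl2l11, Bcl2, Thy1 and Cxcr6 instead set WT healthy apart from both tumour libraries. Without a second library of WT tumour mice, the condition and that library cannot be told apart. The same holds for WT healthy, which also differed from both tumour libraries in Xist, Y-linked transcripts and floxed alleles.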

How the data were processed

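Single-cell 3' libraries (kit version 2, per the labels) of 3 groups were used, 1 library a group. The authors deposited raw UMI counts per gene and barcode for 32285 genes. The submitters' processing notes name Cell Ranger 6.0.1, Seurat 4.0.1 and mm10, and per the file headers the matrices were written by Cell Ranger 4. The deposited barcodes were unfiltered. Members, gene lists and rules were chosen with earlier results of these data known.

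Counts were summed over the members of each library and scaled to CPM (per 1000000 of their UMIs). Ratios carry exact 95% intervals for 2 Poisson counts, and shares exact binomial ones. PCR duplicates are collapsed by UMIs, and intervals cover counting error only. A group at 0 was set to a floor of 3 counts. With 1 library a group, no test between groups was made. Lists numbered 28, of which 9 hold markers of other cell types; 582 of their genes were matched. Genes named are the 5 markers, the 4 called members of each list with the largest log2 ratio, and the 8 highest and 8 lowest called genes with at least 30 UMIs in at least 10 cells and no cell over 20% of them, without sex-linked, ribosomal, mitochondrial, receptor segment and unnamed genes. Beside effector CD8 and CD4 T cells, the rule took 12 genes each way. Further genes of the lists are named to show levels of the list's other members. A few genes that the rule would name are not reported here.

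Doublets were not removed; Scrublet (scanpy 1.11.5, expected share 6%) was an alternative. Free RNA was measured in barcodes of 10 to 100 UMIs, and the alternative removed 10% of each profile. Interval and call code was tested on simulated data. Other alternatives were depth, mitochondrial and gate limits, scaling, equal weight for each cell, gene minimums of 5 and 50 UMIs and, chosen after seeing the data, leaving out the 40 cells with macrophage or monocyte transcripts and, by the same limit, such effector CD8 and CD4 T cells. Python 3.11.15, numpy 2.4.6, scipy 1.17.1, pandas 2.3.3 and matplotlib 3.10.9 were used.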

Additional observations from a re-analysis of the deposited data

Results flagged for a closer look

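The flagged results numbered 11, without the cells that carried macrophage or monocyte transcripts. Each lay one way in members and the opposite way in effector CD8 T cells of the same libraries, past the limit of 1.5-fold. They are not all such results. In PPARg-/- tumour against WT tumour, Myb had a log2 ratio of 1.32 in members and -1.73 in effector cells. These differences between the populations were not tested. Of all genes tested, 10.4 and 4.39% were called in members in the 2 comparisons. In effector CD8 T cells 3.8 and 3.21% were called higher and 4.31 and 2.17% lower. The number called the same way in both populations is not given here. In WT tumour against WT healthy, Rgs1 had a log2 ratio of -1.66 in members and 0.67 in effector cells, and S100a4 of -2.32 and 0.75. Rc3h2, which encodes an RNA-binding ubiquitin ligase, had -1.16 and 0.69, Ints6 -1.17 and 0.75, and Shprh -1.49 and 0.95. Kif13b, a kinesin gene, had -1.34 and 1.02, and Pik3c3, a lipid kinase gene of autophagy, -1.37 and 1.36.

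In PPARg-/- tumour against WT tumour, Rgs1 had 1.63 in members and -0.74 in effector cells, so its order was opposite in both comparisons, which share WT tumour. Klf4, which restrains proliferation of T cells, had -2.46 and 1.49, and over all members 0.89. Txnrd1, an antioxidant reductase gene, had 1.42 and -0.77, and Ndufb2, a complex I subunit gene, 0.65 and -0.61.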

How the results depend on the processing

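No paired analysis was possible because each group is 1 library. The naive-like share of CD8 T cells was 22.2, 21.3 and 22.4% with Ccl5 and Nkg7 at 0, 61.1, 57.1 and 60.4% with gates after thinning, and 36.1% in PPARg-/- tumour at a mitochondrial limit of 5%. For WT tumour against WT healthy, higher genes numbered 388 with scaling by trimmed means and 146 at a minimum of 50 UMIs; lower genes numbered 292 with Ccl5 and Nkg7 at 0 (42.4% of calls then higher) and 318 at 50 UMIs. For PPARg-/- tumour against WT tumour, higher genes numbered 326 with Ccl5 and Nkg7 at 0, 325 at 50 UMIs and 140 without the 40 cells, and lower genes 95 at 50 UMIs; 53.4% of calls were higher without the 40 cells against 77.3%. The naive list's median was 0.00438 with scaling by trimmed means in the first comparison, and the memory list's 1.16 with free RNA subtracted and 0.20 without the 40 cells in the second. Sign changes in the first comparison were the T cell receptor list (0.012, trimmed means), the NK list (-0.056, minimum of 5 UMIs), the dendritic list (-0.29, free RNA) and S100a6 (0.80, without the 40 cells). In the second, without the 40 cells, they were the lists of checkpoint (-0.32), NK (-0.27), macrophage (-0.15) and dendritic cell genes (-0.67), Cd74 (-1.50), Fcer1g (-0.33), H2-Aa (-1.32) and H2-Ab1 (-1.56). At the mitochondrial limit of 5% they were the checkpoint list (-0.13), C1qa (-2.23), C1qb (-1.38), Isg15 (-0.41) and the B cell list (0.39), which also turned with equal weights (0.00455), Ccl5 and Nkg7 at 0 (0.10) and minimums of 5 (0.19) and 50 UMIs (0.53). The cause was not tested. At a minimum of 5 UMIs, 304 genes were called higher and 672 lower in the first comparison and 671 and 219 in the second.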
